A study of Mus musculus with 17 samples.

Results

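Expression of the tissue kallikreins Klk5, Klk6, Klk7, Klk8, Klk10, Klk11, Klk13 and Klk14 and of the Kazal-type inhibitors Spink5 and Spink12 was examined in mammary tumors of MMTV-CUX1 transgenic mice. These 10 genes were chosen by name, from the gene symbol or RefSeq accession of the array probes, with their pattern across tumor types in these arrays already known. Of the 28786 genes on the array, 9 were members with a probe, through 11 probes, since Klk7 had 3 and no probe was matched to Klk13. Spink12 carried its older name, 9230117E20Rik, in the scanner files.

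The RNA came from epithelial cells that were laser-capture microdissected from 17 tumors, each from a different FVB mouse. All mice carried a CUX1 transgene behind mouse mammary tumor virus (MMTV) regulatory sequences, which drive expression in the mammary epithelium: p75-CUX1 in 9 mice and p110-CUX1 in 8, the names of 2 short isoforms of this homeodomain transcription factor. By histology, 4 tumors were adenosquamous carcinomas (p75-47, p75-80, p75-94 and p75-101, all p75-CUX1), and 9 were solid carcinomas, of which p75-129, p75-150 and p75-534 carried p75-CUX1 and p110-121, p110-143, p110-225, p110-314, p110-360 and p110-416 carried p110-CUX1. The remaining tumors were adenomyoepitheliomas p75-90 (p75-CUX1) and p110-374 (p110-CUX1), adenoma p110-98 (p110-CUX1) and adenocarcinoma p75-216 (p75-CUX1). Neither normal gland nor tumors of mice without a transgene were among the samples analysed here. Each tumor was hybridized in both dye orientations against one amplified universal mouse reference RNA, so every value below is a log2 ratio of tumor over reference, where 1 is a doubling, averaged over the arrays of the tumor. The tumor is the replicate, and SDs and standard errors measure the spread between tumors of different mice. All p75 arrays were scanned in a different year from the p110 arrays, so transgene and scan year cannot be told apart.

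Tissue kallikreins are secreted serine proteases, encoded side by side in one gene cluster, that are made as inactive precursors and activate one another in a cascade. In the outer epidermis Klk5, Klk7 and Klk14 cut the corneodesmosomes that hold cornified cells together, so that these cells are shed. Spink5 encodes LEKTI, a multidomain inhibitor that restrains this cascade in skin, and Spink12 belongs to the same family of Kazal-type inhibitors.

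On the array, each gene was read through 60-base probes. The probes of the kallikrein with the widest range (Klk6), of a kallikrein read by several probes that differed (Klk7, the brightest of its probes), of one with intermediate values (Klk8) and of those seen in no tumor (Klk5) or few (Klk14) are given here. The capitals mark the longest run that a probe shares with another of these probes, which was 8 bases between Klk6 and Klk8 and 6 to 8 bases in all. The probes were not compared with other transcripts, so these runs do not show what each probe can tell apart. Klk7 probe A_51_P151159 and the Spink12 probe were not part of the comparison.
Klk6: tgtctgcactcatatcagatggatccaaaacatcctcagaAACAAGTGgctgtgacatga
Klk7: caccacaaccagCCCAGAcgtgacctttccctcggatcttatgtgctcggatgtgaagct
Klk8: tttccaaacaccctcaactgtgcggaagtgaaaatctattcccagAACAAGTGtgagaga
Klk5: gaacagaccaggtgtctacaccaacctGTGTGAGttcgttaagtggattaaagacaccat
Klk14: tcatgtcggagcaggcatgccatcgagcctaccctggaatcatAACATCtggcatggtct
By the probe positions in the scanner files (mm7), the cluster ran along chromosome 7 from Klk14 at chr7:39870065-39870124 through Klk11, Klk10, Klk8 and Klk7 to Klk6 at chr7:40004427-40004486 and Klk5 at chr7:40025880-40025939, a span of 156 kb. The Klk6 probe lay 12.7 kb past the last Klk7 probe. The Klk8 probe was at chr7:39977777-39977836 and the printed Klk7 probe at chr7:39988715-39988961, a span longer than 60 bases.

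Most kallikrein and Spink probes were near background in most tumors. A value counted as measured only if the scanner software found the tumor signal well above background each time that tumor was hybridized, which was so for 37 of 153 member-by-tumor values, or 24.2%, against 40.8% over all genes. In the adenosquamous carcinomas 16 of 36 values were measured (44.4%, with 43.8% for all genes), and in the solid carcinomas 19 of 81 (23.5%, with 44.1% for all genes). These counts are of signal above background, and for Klk10 in p110-121, p110-314 and p110-416 they come with no ratio, because those spots were outliers, which leaves 34 measured ratios in all and 16 in the solid carcinomas. The share of all probes measured per tumor ran from 18.2% to 61.8%, with a median of 35%, and was 31.3% to 47.9% in the adenosquamous and 22.2% to 61.8% in the solid carcinomas. In p110-98, p110-374 and p110-225 the reference was 13.3, 12.1 and 9.05 times as bright as the tumor color at the 95th percentile, against at most 4.14 times elsewhere, and these tumors had 0, 0 and 1 members measured. The numbers were highest in p75-94, with 7 members measured, and p75-129, with 6.

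**Figure D1:**
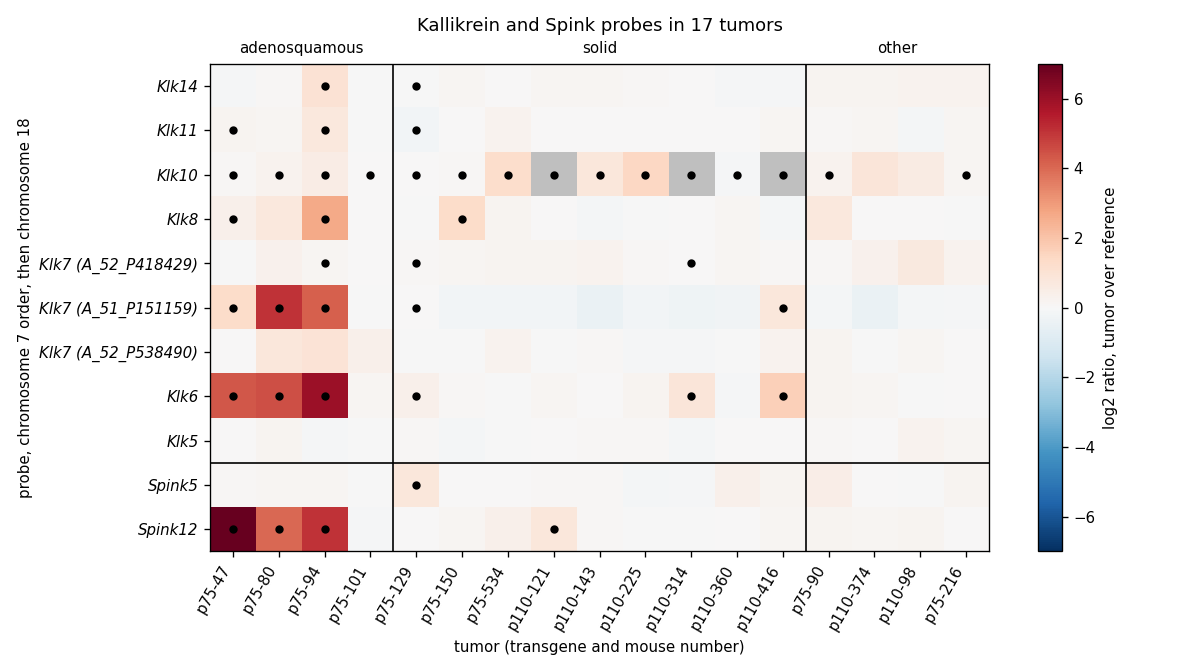
Log2 ratio of tumor over reference (color) for each kallikrein and Spink probe (rows, in probe order along chromosome 7 and then the Spink genes) in each of the 17 tumors (columns, by histology). Dots mark values measured well above background on every array of the tumor, and gray cells are tumors whose Klk10 spots were all outliers. The deepest colors lie in p75-47, p75-80 and p75-94 at Klk6, Spink12 and one Klk7 probe, while p75-101 is near 0 throughout.

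Klk6, a trypsin-like kallikrein also known as neurosin, was far above the reference in 3 of the 4 adenosquamous carcinomas. Its log2 ratio was 4.36 in p75-47, 4.52 in p75-80, 6.0 in p75-94 and 0.14 in p75-101, and it was not measured above background in the last. Among the 9 solid carcinomas the lowest value was -0.06, the median 0.11 and the highest 1.66. The 3 high adenosquamous carcinomas stood above every solid carcinoma, whereas p75-101 lay within their range. Klk6 was measured in 3 solid carcinomas, at 1.66 in p110-416, 0.83 in p110-314 and 0.37 in p75-129. In the other tumor types it ran from -0.02 in the adenoma to 0.20 in p75-90 and was measured in none. Group means were 3.76 ± 2.52 (SD, n = 4) for adenosquamous and 0.36 ± 0.56 (SD, n = 9) for solid carcinomas. With the transgene in the limma fit, the difference was 3.56 ± 0.97 (SE), and among the p75 tumors alone 3.61.

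Spink12, the other gene with a wide range, was high in the same 3 tumors. Its log2 ratio was 7.05 in p75-47, 4.00 in p75-80, 5.06 in p75-94 and -0.09 in p75-101. The 9 solid carcinomas ran from -0.05 through a median of 0.10 to 0.78, and the highest, p110-121, was the only one of them in which the probe was measured. That tumor differed from the others in epithelial markers. Krt5, Krt14 and Elf5, each measured in 16 tumors, read -0.11, -0.17 and 0.07 there and were not measured, while Krt8 and Krt18 were measured in all 17. The sample labels call p110-121 a solid carcinoma, and the paper's list of tumors by histology does not name it. The order of the high tumors differed between the genes, with p75-47 highest for Spink12 and p75-94 highest for Klk6. The means were 4.00 ± 3.01 (SD, n = 4) and 0.16 ± 0.26 (SD, n = 9), and the fitted difference was 3.84 ± 1.11 (SE), also 3.84 among the p75 tumors. In the adenomyoepitheliomas, the adenoma and the adenocarcinoma Spink12 lay between 0.02 and 0.21.

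These ratios have the reference in the denominator. The reference was well above background on 2 of 38 arrays for Klk6 and on 0 of 38 for Spink12, so the high values set a measured tumor signal against a reference near the floor. As normalized tumor signals on the log2 scale, Klk6 was 11.78, 11.18, 13.22 and 6.77 and Spink12 was 14.55, 10.49, 11.02 and 6.49 in p75-47, p75-80, p75-94 and p75-101, while the lowest signal well above background was 5.07 to 7.46 depending on the array. With the scanner software's own processed signals the adenosquamous minus solid difference was 5.15 for Klk6 and 6.25 for Spink12, and over all 16 alternatives other than leaving out a tumor it stayed between 3.33 and 5.15 and between 3.65 and 6.25. Agreement between arrays was closer than between tumors, with a median SD between the arrays of a tumor of 0.16 for Klk6 and 0.07 for Spink12 against an SD between tumors of 1.92 and 2.14. The least repeatable values were those of 2 solid carcinomas, with an SD between arrays of 1.14 for Klk6 in p110-416 and 0.88 for Spink12 in p110-121.

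Across the 17 tumors Klk6 and Spink12 correlated with r = 0.911, a description that rests on p75-47, p75-80 and p75-94. Without these 3 tumors r was -0.138 (n = 14), over values mostly not measured above background. The 17 points share one reference, and the values of both genes in a tumor come from the same arrays.

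**Figure D2:**
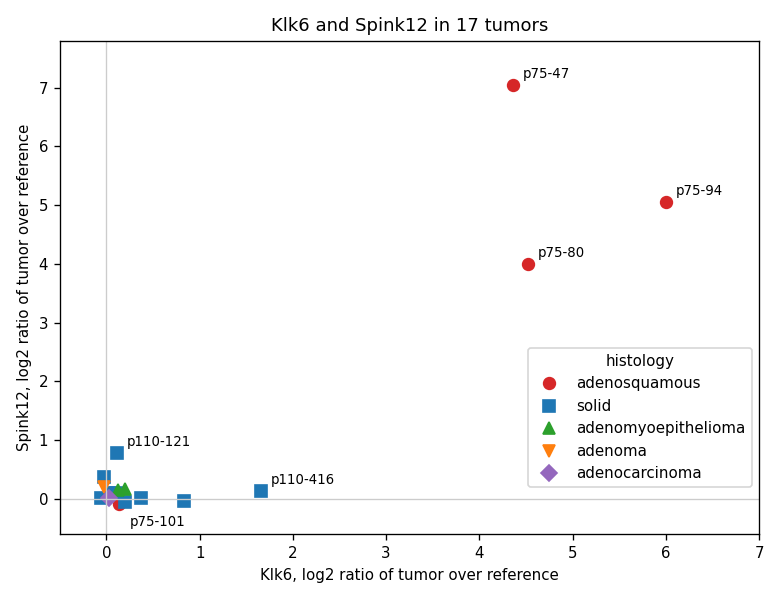
Log2 ratio of Spink12 (vertical axis) against that of Klk6 (horizontal axis), one point per tumor, with symbols for histology. Adenosquamous carcinomas p75-47, p75-80 and p75-94 lie at 4 or above on both axes, and the other 14 tumors, p75-101 among them, lie near 0 apart from p110-416 and p110-314 at 1.66 and 0.83 for Klk6 and p110-121 at 0.78 for Spink12.

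Klk7, the chymotrypsin-like kallikrein of skin shedding, depended on the probe read, with A_52_P418429 unlike the other two. Probe A_51_P151159 followed the pattern of Klk6, at 1.28 in p75-47, 5.04 in p75-80, 4.18 in p75-94 and -0.02 in p75-101, with a mean of 2.62 ± 2.38 (SD, n = 4). In the solid carcinomas it averaged -0.11 ± 0.37 (SD, n = 9), from -0.48 in p110-143 to 0.82 in p110-416, and it was measured in p110-416 and in p75-129, where it was 0.01. Here too p75-47, p75-80 and p75-94 were above every solid carcinoma.
Probe A_52_P418429, brightest of the Klk7 probes and therefore used for the gene in the fit, did not show this pattern, at -0.04, 0.30, 0.15 and 0.00 in p75-47, p75-80, p75-94 and p75-101. Its solid carcinomas lay between 0.05 and 0.22, and its highest value, 0.66, was that of adenoma p110-98. Probe A_52_P538490 was measured in no tumor and read 0.05, 0.77, 0.96 and 0.36 in p75-47, p75-80, p75-94 and p75-101, against a highest solid value of 0.26. Along the chromosome A_51_P151159 and A_52_P538490 were 0.136 kb apart, and A_52_P418429 lay 2.86 kb before them. Correlations between the 3 probes over the 17 tumors ran from 0.063 to 0.882, the last between A_51_P151159 and A_52_P538490. The fitted adenosquamous minus solid difference of Klk7 was thus 0.01 ± 0.08 (SE) by the brightest probe, 2.70 ± 0.90 by A_51_P151159, 0.45 ± 0.17 by A_52_P538490, whose signals were too dim for a fold, and 1.05 by the mean of its probes. For A_51_P151159 the reference was well above background on 5 of 38 arrays, so its high ratios too have a reference near the floor.

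Klk8, a trypsin-like kallikrein known as neuropsin, was highest in p75-94. It read 0.38 in p75-47, 0.75 in p75-80, 2.64 in p75-94 and 0.01 in p75-101, and was measured in p75-47 and p75-94. The reference was well above background on 0 of 38 arrays, so these ratios have a reference near the floor. Solid carcinomas ran from -0.15 through a median of 0.01 to 1.28 in p75-150, the only solid carcinoma in which it was measured, so the groups overlapped. The means were 0.94 ± 1.17 (SD, n = 4) and 0.14 ± 0.44 (SD, n = 9), with a fitted difference of 0.44 ± 0.48 (SE). Without p75-94 the difference was -0.13, so its direction rested on that tumor, and with the scanner software's processed signals it was 1.24.

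Klk14, a trypsin-like kallikrein of the epidermal cascade, was measured in p75-94 and p75-129. It read -0.07 in p75-47, 0.08 in p75-80, 1.0 in p75-94 and -0.01 in p75-101, and from -0.10 through a median of 0.05 to 0.14 in the solid carcinomas. The fitted difference was 0.21 ± 0.20 (SE), and -0.04 without p75-94. Klk11, a further trypsin-like kallikrein, had its highest value in p75-94 as well, with 0.20, 0.16, 0.74 and -0.01 in p75-47, p75-80, p75-94 and p75-101 and -0.21 to 0.24 in the solid carcinomas. Its fitted difference was 0.26 ± 0.14 (SE), and 0.11 without p75-94. Among members, 4 had their highest value over all 17 tumors in p75-94, namely Klk6, Klk8, Klk11 and Klk14.

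Klk5, which activates other kallikreins at the head of the epidermal cascade, was measured in none of the 17 tumors. Its values ran from -0.16 to 0.22, with 0.04, 0.18, -0.06 and -0.03 in p75-47, p75-80, p75-94 and p75-101, and no fold is given because tumor and reference were both near background. Spink5, the LEKTI gene, was measured in p75-129 alone, at 0.77. Its adenosquamous values were 0.10, 0.11, 0.12 and -0.03 in the same order, none of them measured, and the solid carcinomas ran from -0.11 through a median of 0.09 to 0.77. The fitted difference was -0.23 ± 0.16 (SE), and -1.39 ± 0.70 with the scanner software's processed signals, between groups at or near background. Without p75-129 the difference was -0.05. Spink5 therefore did not share the pattern of Spink12, and its highest unmeasured values were 0.46 in p75-90 and 0.37 in p110-360.

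Klk10, an atypical kallikrein that was first described as lost in breast cancer cells, was the member most widely measured. Its tumor color was well above background in 15 tumors and its reference on all 38 arrays. Its ratios were small in the adenosquamous carcinomas, at 0.08, 0.25, 0.50 and 0.05 in p75-47, p75-80, p75-94 and p75-101. The highest ratios in the fit were those of solid carcinomas, 1.44 in p110-225 (from 1 of its 2 arrays, thus 1 dye orientation, and 1.83 with both) and 1.24 in p75-534, while p75-129 and p75-150 read 0.04 and 0.10, p110-360 read -0.07 and p110-143 read 0.80, each from 2 of 4 arrays. The means were 0.22 ± 0.21 (SD, n = 4) and 0.59 ± 0.66 (SD, n = 6), and the groups overlapped. The fit, which gave -0.20 ± 0.40 (SE), held no value for p110-121, p110-314 and p110-416, whose spots were all outliers to the scanner software. Of the 38 spots of this probe 11 were left out for that reason, and with them kept these tumors read 2.61, -0.73 and -0.04 and the difference was -0.21 ± 0.63. Without p75-534 the difference was 0.14, so its direction rested on that tumor.

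**Figure D3:**
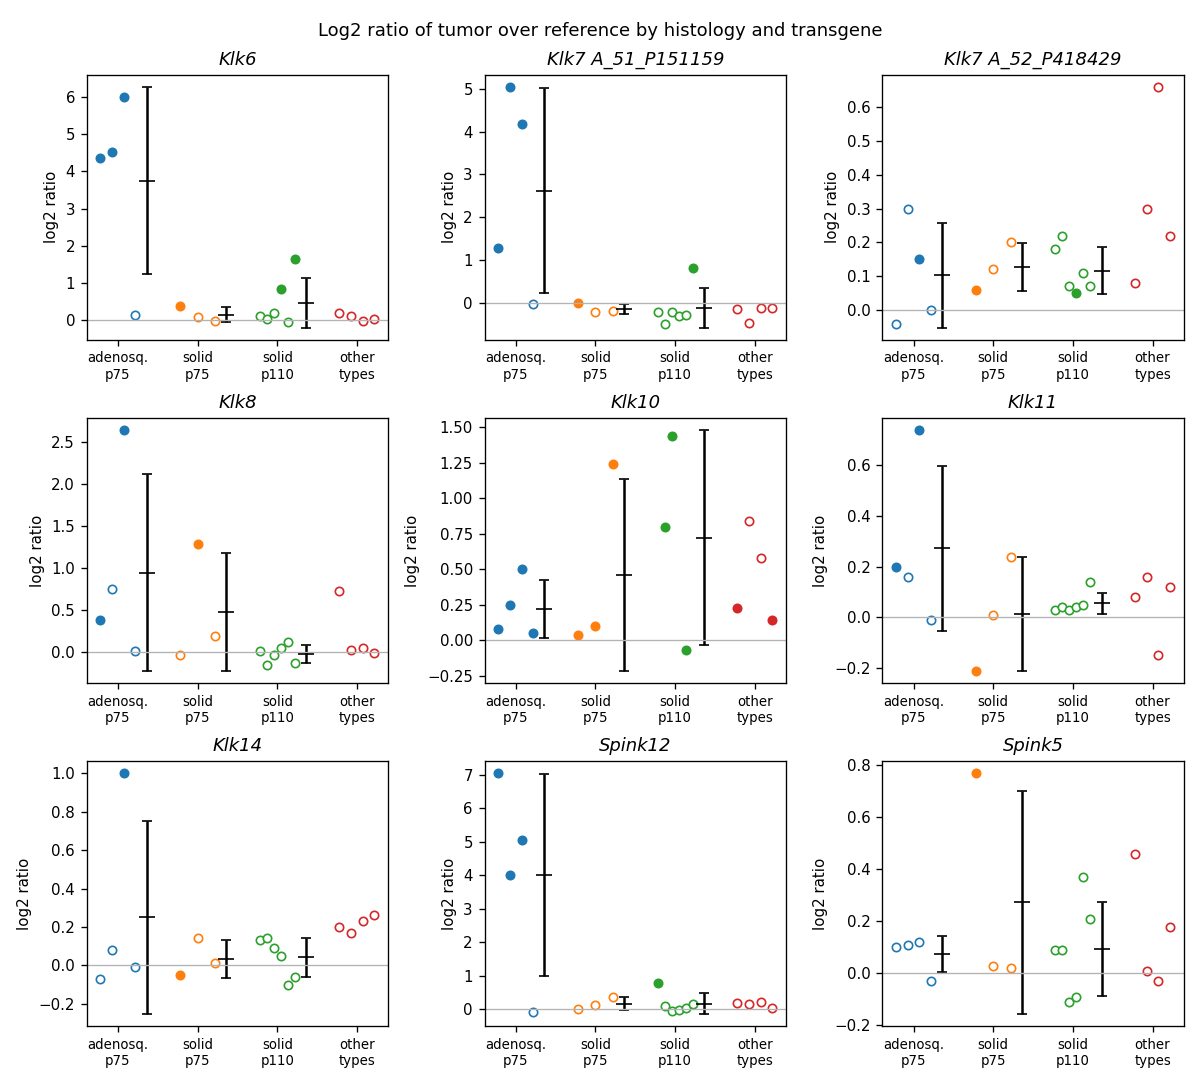
Log2 ratio of tumor over reference in adenosquamous p75, solid p75, solid p110 and other tumors, one panel per probe with its own axis. Each circle is a tumor, filled where the probe was measured above background, and the bars beside the first 3 groups are mean ± SD. For Klk6, Spink12 and Klk7 probe A_51_P151159, p75-47, p75-80 and p75-94 lie above all solid carcinomas and p75-101 lies among them.

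Adenosquamous carcinomas combine glandular and squamous growth, and the comparison with solid carcinomas asks which genes go with squamous histology. No gene passed an adjusted p of 0.05 (limma, Benjamini-Hochberg over 28786 genes, so percent called was 0), with 850 genes under an unadjusted p of 0.05, and 0 of the 9 members were among the genes called. Since the members were chosen with this comparison known, their values are a description. Their fitted differences were above 0 for 7 of 9 with a median of 0.21, beside 49.3% of all genes and a median of 0. By overlap, 0 members had all 4 adenosquamous carcinomas above or below the 9 solid ones, which held for 0.192% and 0.213% of all genes. Against the 3 p75 solid carcinomas alone the count was also 0, beside 2.31% and 2.75% of all genes.

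These results depended on p75-101. Without p75-101 the difference was 4.76 ± 0.47 (SE) for Klk6 and 5.20 ± 0.55 for Spink12. In that fit 9 genes passed the threshold (0.0313% of all genes), all higher in the adenosquamous carcinomas, and these members were 2 of them, which is no test of either, since the tumor left out is the one adenosquamous carcinoma in which both were low. The other members moved less, to 0.75 ± 0.47 for Klk8, 0.36 for Klk11, 0.30 ± 0.21 for Klk14 and 0.08 ± 0.08 for Klk5, and to -0.20 ± 0.18 for Spink5. The rest, each also low in p75-101, were Krt16, a keratin of activated keratinocytes, with a difference of 6.29 (limma adjusted p = 0.019), Cnfn, the cornified envelope protein cornifelin, with 3.66 (adjusted p = 0.019), and Sp6, the transcription factor epiprofin of tooth and hair, with 5.34 (adjusted p = 0.0308). Completing the set were Dhh, a hedgehog ligand, at 3.42, Gykl1 at 2.97, Cryba4, a crystallin, at 4.25 and Gsdma, a gasdermin of skin, at 4.44 (limma adjusted p = 0.00789, 0.00789, 0.0447 and 0.0493). For these genes too the adjusted p values are no test, since the tumor left out is one in which each was low. None of them was called with all tumors in the fit. Without p75-94 the members' median difference was -0.01, and Klk6 was 2.81, while Spink12 was lowest, at 2.82, without p75-47.

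**Figure D4:**
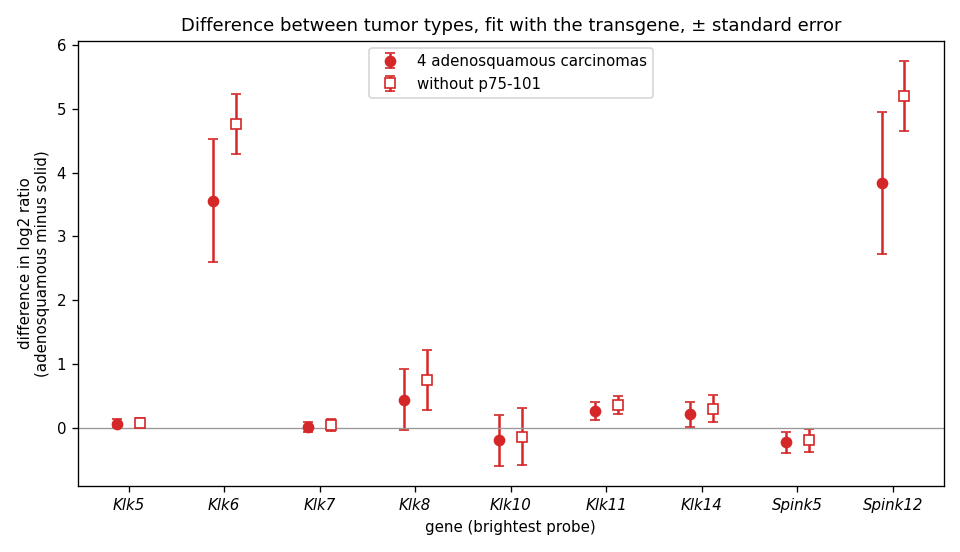
Fitted difference in log2 ratio, adenosquamous minus solid carcinomas, for the 9 members (one probe per gene), with bars of 1 standard error. Filled circles use all 4 adenosquamous carcinomas and open squares leave out p75-101. Klk6 and Spink12 stand at 3.56 and 3.84 with all tumors and at 4.76 and 5.20 without p75-101, and the other members lie between -0.23 and 0.75.

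Squamous markers followed Klk6 and Spink12 in part. Of the 14 markers on the list, 2, 11, 7 and 0 had a log2 ratio above 1 in p75-47, p75-80, p75-94 and p75-101, and their mean log2 ratio was 0.50, 3.01, 1.75 and -0.21. In the solid carcinomas that mean lay between -0.39 and 0.26, a range that also held p75-101, although its histology is named for squamous cells. Krt16 read 5.78, 7.67, 5.46 and -0.60 in p75-47, p75-80, p75-94 and p75-101, and it also read 2.88 in p110-225, 2.54 in p75-90 and 1.7 in p110-374. Markers above 1 numbered 3 in p110-225 and in p75-90 and 2 in p110-98 and in p110-374. In these tumors Klk6 and Spink12 lay between -0.05 and 0.21 and were not measured above background. Since p110-225, p110-98 and p110-374 had a weak tumor color, low expression and failed detection cannot be told apart there. Tumor p75-47, highest for Spink12, had 2 such markers, as many as p110-98 and p110-374. The fitted difference was above 0 for 14 of 14 markers with a median of 1.24 and 0 called, Ivl (involucrin) was measured in no tumor, and the log2 of the summed tumor signal was 12.76 to 17.32 in adenosquamous and 11.40 to 13.85 in solid carcinomas. The median difference was -0.58 for 10 luminal markers (1 above 0), -0.05 for 8 basal, 0.78 for 6 fibroblast, -0.08 for 5 endothelial, -0.05 for 8 immune and 0.36 for 4 adipocyte markers, with none called. The medians near 0 held markers that went both ways, and named after their values were seen are the basal markers Krt14, at 3.0 ± 0.86 (SE, unadjusted p = 0.00438), Trp63, at 1.96 ± 1.42, and Krt5, at 1.90 ± 1.88. The contractile markers among the basal genes had differences below 0, at -1.31 ± 1.93 for Cnn1, -0.39 ± 0.80 for Myh11, -0.34 ± 1.17 for Acta2 and -0.15 ± 0.49 for Mylk, and Oxtr was at 0.05 ± 0.37. Also named after their values were seen are the immune markers S100a8, at 3.60 ± 1.35 (unadjusted p = 0.0206), and S100a9, at 3.70 ± 1.84, while the other 6 immune markers lay between -0.16 and 0.09. The limma adjusted p was 1 for each of these basal and immune markers. Squamous epithelium is also known to make S100a8 and S100a9. Summed signals of adenosquamous and solid carcinomas were 14.97 to 17.32 and 12.48 to 17.04 for fibroblast, and 12.59 to 16.50 and 12.52 to 15.71 for immune markers. The part of other cells in the kallikrein and Spink values was not tested. In pools of captured cells, fewer cells of a type and less RNA per cell cannot be told apart.

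Genes related to the kallikreins by family or function were then taken as lists. None of their genes was called between adenosquamous and solid carcinomas in limma. Of 18 other kallikreins 17 had a probe, 6 had a difference above 0 and the median was -0.02. Klk4, which matures tooth enamel, was measured in all 17 tumors at -0.96 ± 0.27 (SD, n = 4) in adenosquamous and -0.57 ± 0.88 (SD, n = 9) in solid carcinomas. With the transgene in the fit its difference was 0.01 ± 0.59 (SE, limma adjusted p = 1). Klk1b21, of the Klk1 subfamily of near-identical mouse genes that probes may not tell apart, was -0.03 ± 0.09 (SD, n = 4) and 0.83 ± 1.34 (SD, n = 9), while the difference with the transgene in the fit was -0.13 ± 0.70 (SE, limma adjusted p = 1). Of the neighbors of the members in the cluster, Klk9 was measured in no tumor and Klk12 in p75-47 alone, at 0.64.
Of 10 other Spink genes 5 had a probe, 4 of these with a difference above 0 and a median of 0.15, and Spink2 and Spink8 differed by 0.03 ± 0.65 (SE) and 0.21 ± 1.08. Of 18 other epithelial protease inhibitors 17 had a probe and 15 were above 0, with a median of 0.11. Wfdc18, a whey acidic protein family inhibitor of the mammary gland, was at 8.78 ± 1.04 (SD, n = 4) and 7.38 ± 2.12 (SD, n = 9), and Slpi, the secretory leukocyte protease inhibitor, at -0.25 ± 1.20 and -0.98 ± 2.05. Their fitted differences were 0.70 ± 1.27 (SE) and 0.33 ± 1.29. Of 19 other epidermal proteases 18 had a probe and 8 were above 0, with a median of -0.04, among them the membrane protease Tmprss4 (difference 0.98 ± 1.18, SE) and the lysosomal protease Ctsl (-0.77 ± 0.68). A list of 20 genes drawn up as kallikrein substrates and receptors also held structural genes such as Pkp1 and Tgm1. Whether kallikreins act on their proteins was not tested. All 20 had a probe, 12 with a difference above 0 and a median of 0.14. Pkp1, a plaque protein of desmosomes, differed by 1.86 ± 1.67 (SE) and Tgm1, which cross-links the cornified envelope, by 1.39 ± 0.53, the latter with an unadjusted p of 0.0225 and a limma adjusted p of 1. Without the transgene in the fit these differences became 0.24 for Tmprss4, 3.31 for Pkp1 and 0.61 for Tgm1.

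Transgene was compared at equal histology, p75 minus p110, which rests on the solid carcinomas (3 p75 and 6 p110) and the adenomyoepitheliomas. Klk6 and Spink12 had differences smaller than their standard errors, at -0.24 ± 0.84 (SE) and 0.01 ± 0.95. The other members were 0.54 ± 0.41 for Klk8, 0.24 ± 0.14 for Spink5, -0.35 ± 0.35 for Klk10, -0.05 ± 0.12 for Klk11, -0.04 ± 0.07 for Klk7, -0.04 ± 0.06 for Klk5 and 0.00 ± 0.17 for Klk14, with a median of -0.04 and 3 of 9 above 0, beside 50.2% of all genes. Klk8 was 0.25 without p75-150 and 1.44 with the scanner software's processed signals, Spink5 was 0.06 without p75-129 and 1.26 with processed signals, and Klk10 was 0.48 with median centering in place of loess and -0.65 without p110-360. Klk8 was measured in no p110 tumor, where it ran from -0.15 to 0.12, and in 3 of 9 p75 tumors. Of these 3 tumors, 2 were adenosquamous carcinomas, a type present only with p75, so this count is not at equal histology. Among the solid carcinomas Klk8 was measured in 1 of 3 p75 and 0 of 6 p110 tumors. The tumors with a weak tumor color, where low expression and failed detection cannot be told apart, all carried p110. The members called numbered 0, beside 4 genes of all tested (0.0139%), and no member separated the 3 p75 from the 6 p110 solid carcinomas, as 1.82% and 1.71% of all genes did in each direction, with Klk10 not counted for want of values.

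The study ordered its tumors by Wnt gene expression, so the members were also set against the summed rank of 19 Wnt genes in each tumor. Each gene counts alike in this sum, although Wnt2b and Wnt5a were measured in 0 tumors and Wnt7a, Wnt8b and Wnt10b in 1. Others were widely measured, with Wnt6 in 17 tumors, Wnt5b in 15 and Wnt10a in 13. The sum therefore ranks in part values that were not measured above background. The sum was 201, 223, 244 and 108 in p75-47, p75-80, p75-94 and p75-101, and the solid carcinomas ran from 81 in p110-416 to 213 in p110-225. Wnt6 and Wnt10a, both among the 19, read 2.15 and 2.00 in p75-94, 2.07 and 2.11 in p75-80, 1.25 and 0.35 in p75-47 and -0.58 and -4.04 in p75-101. Slopes of the log2 ratio per 100 units of rank sum were 2.29 ± 1.03 (SE) for Spink12, 1.71 ± 0.99 for Klk6, 0.65 ± 0.34 for Klk8, 0.60 ± 0.30 for Klk10, 0.29 ± 0.13 for Klk14 and 0.17 ± 0.11 for Klk11. Those of Klk7, Klk5 and Spink5 were 0.15 ± 0.09, 0.08 ± 0.06 and -0.06 ± 0.13. In this fit 0 members were among 238 genes called (0.827%). As a description, Pearson's r with the rank sum (n = 17) was 0.539 for Spink12, 0.516 for Klk14, 0.499 for Klk8, 0.458 for Klk10 (14 tumors) and 0.456 for Klk6. Spearman's correlation, by ranks, was 0.609, 0.356, 0.403, 0.609 and 0.286 in the same order. A high rank sum did not always go with high Klk6 or Spink12, as p110-225, at 213, had 0.20 and -0.05, and p110-374, at 203, had 0.12 and 0.16, although both had a weak tumor color.

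Correlations between members were mostly between values near background. Over the 36 pairs of members, with Klk7 by its brightest probe A_52_P418429, r across the tumors ran from -0.53 to 0.911 with a median of 0.017, and 18 pairs were above 0. The 21 pairs of kallikreins had a median of 0.131, and the highest of these was Klk8 with Klk14, at 0.792, where p75-94 was highest for both. All these correlations share the reference and the arrays of each tumor, and few of the values were measured, with Klk5 measured in 0 tumors, Spink5 in 1 and Klk14 in 2, so a median near 0 says nothing of whether the members move together. Tumor p75-129 had 6 members measured and 61.8% of all probes, while its reference had 59.1% of probes measured, so a measured signal there did not mean a high ratio.

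Genes were ranked by their likeness to the mean z-score of the 6 members measured in at least 3 tumors (Klk6, Klk7, Klk8, Klk10, Klk11 and Spink12), which leaves out Klk5, Klk14 and Spink5. Of these 6, Klk7, Klk8, Klk11 and Spink12 reached 3 tumors only with the adenosquamous carcinomas p75-47, p75-80 and p75-94 counted, so the choice of members itself favored a mean that was high there, and the genes nearest to it describe these tumors. Nearest to this mean over the 17 tumors, of genes measured in at least 5 tumors, was Lypd6b, a member of the Ly6 family, with r = 0.905. Next came Krt27, a keratin of the hair root sheath (0.88), Sema3b, a semaphorin (0.874), the unnamed probe A_52_P174368 (0.871), S100a3, a calcium-binding protein of the hair cuticle (0.869), Cryba4 (0.868), Dhh (0.865), Vmp1 (0.859), Sp6 (0.847) and the unnamed probe NAP052136-1 (0.841). Krt27 and Cryba4 were also the nearest to Klk6, at 0.961 and 0.946, and to Spink12, at 0.864 and 0.85. Nearest to the other members measured in 3 or more tumors were NAP018089-001 (0.868) and Nrd1 (0.861) for Klk8, Clec4e (0.877) and Slc41a3 (0.824) for Klk10, A_52_P174368 (0.896) and NAP052136-1 (0.893) for Klk11, and ENSMUST00000024982 (0.883) and BG294923 (0.88) for Klk7. These are descriptions of likeness over 17 tumors that share a reference.

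Since neighbors Klk6 and Klk7 were high in the same tumors, by one Klk7 probe, the stretches before their starts are given from RefSeq (GRCm38.p6, a later build than that of the probes). The Klk7 stretch of 250 bases runs up to its start, whereas that of Klk6 is cut to 144 bases and leaves out those next to the start, at position 43824544, because the gene table begins the gene before it. Promoter sequences were matched for 8 member genes, with 10 starts. Capitals would mark a searched motif, and neither stretch held one.
Klk6, chr7:43824294-43824437, plus strand: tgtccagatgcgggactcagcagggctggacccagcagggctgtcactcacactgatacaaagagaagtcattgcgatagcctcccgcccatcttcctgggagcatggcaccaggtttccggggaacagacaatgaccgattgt
Klk7, chr7:43811044-43811293, plus strand: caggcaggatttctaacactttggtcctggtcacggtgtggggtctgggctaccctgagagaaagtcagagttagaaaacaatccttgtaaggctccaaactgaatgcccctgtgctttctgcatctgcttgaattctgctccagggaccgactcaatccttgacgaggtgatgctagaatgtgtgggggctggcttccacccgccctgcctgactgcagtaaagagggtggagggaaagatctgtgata
The motifs were searched on both strands of the 250 bases before each start, in all 32851 promoters of the table. The TATA box, TATAAA, was in 12.4% of promoters and the AP-1 motif, TGANTCA, in 6.75%. The CUX1 motif ATCGAT was in 0.728% and its variant ATCAAT in 6.72%. The TCF/LEF motif CTTTGAT was in 3.21% and its variant CTTTGTT in 5.03%. The AP-2 motif, GCCNNNGGC, was in 13.7%. Of the 10 member starts, 1 held the second TCF/LEF motif (Klk11, 103 bases before the start) and 1 held the AP-2 motif (Klk8, 47 bases before the start), and none held the others. A match is a run of letters and not a bound site, and arrays of RNA do not bear on binding.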

How the data were processed

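The samples were microdissected epithelial cells of 17 mammary tumors. RNA and a universal mouse reference were amplified, labeled with Cy3 and Cy5 and hybridized in dye swap to 38 Agilent arrays (design 014868, Feature Extraction 9.5.3.1), with 4 arrays for 2 tumors. The authors deposited scanner files with the intensity and local background of each spot for Cy3 and Cy5, and log2 ratios processed with limma, whose settings are not given in the sources used here. Recomputing the authors' log2 values from the intensities showed normexp with offset 50, loess within arrays and the mean over dye swaps with the sign turned (largest difference 4.98e-08). The same steps were used here in R 4.3.3 with limma 3.58.1 and statmod 1.5.0, leaving out control spots and spots flagged as outliers (0.545%). The channel list of the authors gave each array's dyes.

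Of 45018 spots per array, 43379 were not controls and held 41174 probes, of which 22951 (55.7%) were matched by accession. The brightest probe stood for each of 28786 genes. Log2 ratios of all 17 tumors were fitted with histology and transgene (11 residual degrees of freedom), and separately with the Wnt rank sum and transgene, with Benjamini-Hochberg adjustment over all genes at 0.05. Precision is limited by the number of tumors. None of the member spots was saturated. Members and lists were chosen with earlier results of these data known, so members get no test. From each list of genes related to the kallikreins, genes called, or otherwise the 2 genes measured in most tumors (ties by the larger difference), were named. Klk9, Klk12, Krt16, the genes called without p75-101 and some cell type markers were named after their values were seen. The nearest genes were those with the highest Pearson correlation with the mean z-score of the members measured in at least 3 tumors, or with 1 of these members. Alternatives were another background correction, normalization, dye, probe choice, filter and block, and leaving out tumors. The fit was also run on simulated data with normal errors, where differences of 3 to 6 were added to 200 genes. Of these genes, drawn from the less variable ones, 99.5% were called. This does not show how often such differences would be called in genes that vary more. A table of proteins and a genome were not used here.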

Additional observations from a re-analysis of the deposited data

Results flagged for a closer look

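Within the adenosquamous and the solid carcinomas, 22 groups of values of 1 member probe were searched for a tumor set apart from its group, and 5 were found by Dixon's criterion, each in a different tumor. Chance flags about 1 in 20 groups. In the solid carcinomas, Klk8 was 1.28 in p75-150 against 0.19 in the next tumor. Spink12 was 0.78 in p110-121 against 0.37 in the next. Klk7 by probe A_51_P151159 was 0.82 in p110-416 against 0.01 in the next. All 3 of these highest values were measured above background. In the adenosquamous carcinomas, Klk14 was 1.0 in p75-94, against 0.08 in the next. Spink5 was -0.03 in p75-101 against 0.10 in the next, with none of its adenosquamous values measured above background.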

How the results depend on the processing

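Klk6 and Spink12 stayed higher in adenosquamous than in solid carcinomas under each alternative run. Differences of genes not called turned in sign: adenosquamous minus solid for Klk10 (-0.20 to 0.14 without p75-534), Klk8 and Klk14 (-0.13 and -0.04 without p75-94), Klk7 (-0.18 with median centering), Wfdc18 (0.70 to -0.34 with the tumor color alone), Slpi (0.33 to -0.24 with median centering), Spink8 (0.21 to -0.44 without the transgene), Klk4 and Spink2 (to -0.39 without the transgene and -0.43 without p75-80), and p75 minus p110 for Klk10 (-0.35 to 0.48 with median centering), Klk7 and Klk11 (-0.04 to 0.37 and -0.05 to 0.17 with the tumor color alone) and Spink12 (0.01 to -0.32 with processed signals). The count of genes called between these types was 0, with 1 under the scanner software's processed signals and 0 to 9 when a tumor was left out (9 without p75-101). The members' median difference moved to 3.56 under the filter on dim probes, which left Klk6, Klk10 and Spink12. Klk6 and Spink12 reached its 4 tumors only with the adenosquamous carcinomas counted, where they were high, so the filter fixed this value. The median ran from -0.01 (without p75-94) to 0.30 when a tumor was left out. For p75 against p110 the 4 genes called became 0 with processed signals (2424 under an unadjusted p of 0.05) and within solid carcinomas (1483), 1 with the authors' values, the filter, the Cy3 arrays, without the 3 tumors with weak tumor color or with outliers kept, 2 with trend and robust fitting, 13 with the Cy5 arrays, 31 with median centering and 350 with the tumor color alone, and 1 to 15 when a tumor was left out (15 without p110-360). The members' median became 0.04 with median centering, 0.02 with the tumor color or the Cy3 arrays, -0.24 with the filter and -0.07 to 0.03 when a tumor was left out. The 238 genes called by Wnt slope became 1727 without background correction, 1071 with processed signals, 0 with median centering, the Cy5 arrays, the p75 tumors or without the weak tumors (3177, 3653, 2524 and 3042 under an unadjusted p of 0.05), 4 with the tumor color, 33 with the Cy3 arrays, 79 without the transgene and 24 (without p110-416) to 519 (without p75-94) when a tumor was left out. Other causes were not tested. The 37 measured member values became 53 with the Cy3 arrays and 30 to 36 without a tumor. Leaving out weak tumors, keeping outliers and the Klk7 probe choice were chosen after seeing the data. No paired analysis was possible because replicate numbers were given in accession order and pair no tumors.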
